A study of Mus musculus with 2 samples.

Results

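The acute phase proteins and complement genes examined here were *Saa3*, *Lcn2*, *Hp*, *C3*, *C4b*, *C1s1*, *C1ra*, *Cfb* and *Serping1*, which encode a serum amyloid, a lipocalin, haptoglobin and components and an inhibitor of complement. These 9 genes, chosen by name for that function, were read in DGE tag profiles of 2 mouse cell lines, out of 55450 annotated genes, and 14450 genes had a listed tag of their own. GC-1spg was derived from type B spermatogonia of a mouse aged 10 days and carries the plasmid pSV3-neo. GC-2spd (ts) was derived from spermatocytes of a mouse aged 6 weeks and carries the SV40 large T antigen. The sources read do not say what pSV3-neo encodes, so large T antigen is not to be read as a difference between the lines. Both are immortalised lines grown in the same medium with serum, and the labels name no inflammatory agent. With a single library from each line, differences have no replicate check, and line, donor age and the way of immortalisation cannot be told apart. The genes were picked with values of this comparison already known, so their values are given as a description and were not tested. Where a pair of copy numbers is given below, GC-1spg comes first.

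Acute phase proteins are secreted proteins whose blood levels change when tissue is injured or infected. The liver is their main source, and fibroblasts, epithelial cells and macrophages make several of them locally. Interleukin-6 type cytokines act on them through STAT3, and interleukin-1 and tumour necrosis factor act through NF-κB and C/EBP factors. Complement is a chain of plasma proteases and their substrates. The classical pathway starts when the C1 complex, made of C1q and the proteases C1r and C1s, cleaves C4 and C2. The alternative pathway uses factor B, and both pathways meet at the cleavage of C3. The C1 inhibitor, a serpin, blocks C1r and C1s.

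In this assay *Nla*III cuts cDNA at CATG, and the 17 bases after the site nearest the poly(A) tail are read as a tag. A transcript ideally gives 1 tag, so a level in TPM, the copies scaled to 1000000 clean tags, does not depend on transcript length. GC-1spg had 5072149 clean tags and GC-2spd (ts) had 4726808. The deposited lists start at 2 copies, so a gene without a listed tag may still have had single copies. Its upper limit was set here at the one-sided 95% Poisson limit for 1 unlisted copy of each distinct tag seen in the other library. A fold against such a limit is given as a bound from the low end of the 95% interval of the listed gene, with the fold at its measured level in parentheses. The intervals reflect counting error alone, because each line has a single library. Repeated PCR copies are not distinguishable from separate molecules, which could make the intervals too narrow. For genes listed in both libraries they also leave out single copies that the lists drop.

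GC-1spg listed tags of their own for 6 of the 9 genes, and GC-2spd (ts) did so for 3. *Saa3*, *C3*, *Hp*, *C1ra* and *Lcn2* were lower in GC-2spd (ts) by 2-fold or more, with 0.01 TPM in place of 0, as 21.5% of all listed genes were, and 0 of the 9 were at least 2-fold higher, which 24.2% of all listed genes were. *Lcn2*, with 2 and 0 copies, is counted as lower only through the value put in place of 0, and a difference was not detectable for it. The 4 genes with at least 10 tags over both libraries, *Saa3*, *C3*, *Hp* and *C1ra*, were all on the lower side, where 14.9% of the 11298 genes of that depth lay, while 19.9% lay on the higher side. Since these values were known when the genes were picked, nothing is read from these shares. The remaining 3 genes, *C1s1*, *C4b* and *Cfb*, had only tags that another gene also holds.

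**Figure D1:**
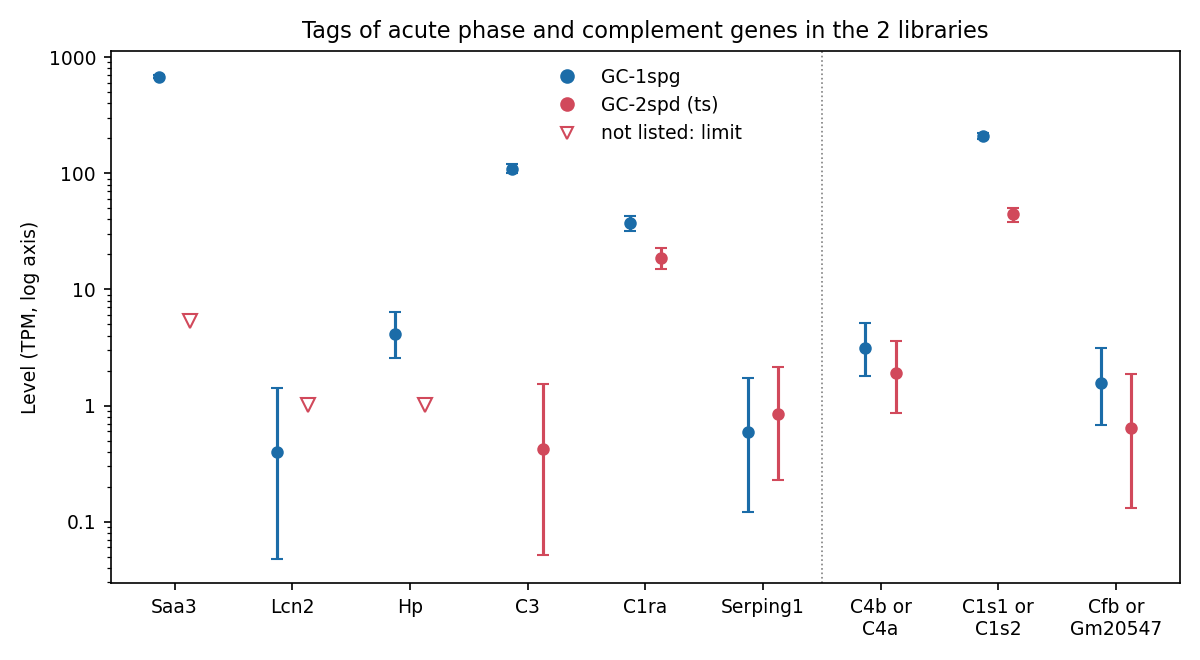
Level of each gene in GC-1spg (blue) and GC-2spd (ts) (red) in TPM on a log axis, with exact 95% Poisson intervals; open triangles are the limits for genes not listed. *Saa3* was at 679 TPM in GC-1spg and under 5.39 TPM in GC-2spd (ts), and the 3 entries right of the dotted line rest on tags shared with a second gene.

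The tags that carried these values are shown first for the secreted acute phase proteins, because each gene is read through 1 or 2 short sequences. Capitals mark the *Nla*III site.
Saa3, site nearest the 3′ end: CATGctgccccccgagaagag
Saa3, next site upstream: CATGgagcagaggactcaaga
Hp: CATGgaagagggggaagtgga
Lcn2: CATGgtatttttccgaaagac

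*Saa3* encodes an inducible serum amyloid A that is made mainly outside the liver. GC-1spg held 3446 copies of it, or 679 TPM (95% interval 657 to 702), and GC-2spd (ts) held 0, with a limit of 5.39 TPM. *Saa3* was therefore at least 122-fold lower (126-fold at its measured level) in the second line. It ranked 77 among the 13066 genes listed in GC-1spg, which placed it above the other 8 genes. The main tag had 3321 copies, or 96.4% of the *Saa3* copies, and lies in the 3′ UTR of exon 4 at chr7:46712080-46712100 of GRCm38, on the minus strand. Another 15 tags differed from it by 1 base and had 2 to 18 copies each, 88 in all or 2.55% of the *Saa3* copies. Thus, nearly the whole *Saa3* value came from a single site, and exact matches alone gave 3358 copies against 0. The next site upstream, in the coding sequence at chr7:46712210-46712230, had 37 copies. A further tag, shared by *Saa3* with *Saa1* and *Saa2*, had 12 and 0 copies. *Saa1*, *Saa2* and *Saa4*, the other serum amyloid genes of the same cluster on chromosome 7, had no listed tag of their own in either library. *Saal1*, the other close neighbour of *Saa3*, had 136 and 83 copies, a log2 ratio of -0.61.

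*Hp* encodes haptoglobin, which binds free haemoglobin in plasma. GC-1spg held 21 copies, or 4.14 TPM (2.56 to 6.33), and none was listed for GC-2spd (ts), which makes *Hp* at least 2.55-fold lower there (4.13-fold at its measured level). All copies came from 1 tag in the 3′ UTR of exon 5 at chr8:109575204-109575224. The flanking genes *Txnl4b* and *Dhodh* were listed in both libraries, with 9 and 12 copies and with 37 and 42 copies.

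*Lcn2* encodes lipocalin 2, which binds bacterial siderophores and so withholds iron. It was near the lower end of what the lists can show, with 2 copies from GC-1spg, or 0.394 TPM (0.0478 to 1.42), and none listed for GC-2spd (ts). The limit for GC-2spd (ts), 1.004 TPM, is above the GC-1spg value, so no fold is given and a difference was not detectable at this depth. Its tag is in the coding sequence of exon 4 at chr2:32385744-32385764, at the second site from the 3′ end. With transcripts extended by 20 A, a setting chosen after seeing the data, *Lcn2* had 6 and 0 copies, or 1.18 TPM in GC-1spg.

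The most 3′ tag of *C3* and, to show how the copies spread along the transcript, 3 sites further upstream were as follows.
C3, site nearest the 3′ end: CATGtggggcctctcctctga
C3, exon 32: CATGccaaactcaaaagcaaa
C3, exon 24: CATGacaccaacagtcattgc
C3, exons 1 and 2: CATGtattccatcattactcc

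*C3* encodes the central component on which all complement pathways meet. It had 556 copies in GC-1spg, or 110 TPM (101 to 119), and 2 copies in GC-2spd (ts), or 0.423 TPM (0.0512 to 1.53). The log2 ratio was -8.02 (exact 95% interval -11.07 to -6.16), which is 259-fold lower with an interval of 71.4- to 2145-fold. GC-1spg listed 17 distinct *C3* tags and GC-2spd (ts) listed 1. Unlisted single copies of the other tags are outside this interval and could put the fold below its low end. Both copies in GC-2spd (ts) were of the most 3′ tag, and 2 is the smallest number the lists hold. By rank *C3* was gene 1052 of the GC-1spg list and gene 11767 of the other. In GC-1spg the copies lay at 16 CATG sites from exon 40 to exon 1. The most 3′ site, in the coding sequence of exon 40 at chr17:57204272-57204292, held 422 exact copies, or 75.9% of the total. The 15 sites upstream held 130 copies, with 3 to 18 each. The tag in exon 32, at chr17:57209466-57209486, had 18 copies, the tag in exon 24, at chr17:57215812-57215832, had 16, and the tag across the junction of exons 1 and 2 had 8. None of the upstream sites was listed in GC-2spd (ts). The next genes downstream and upstream along the chromosome did not share this pattern: *Tnfsf14* was not listed in either library, and *Gpr108* had 227 and 128 copies, a log2 ratio of -0.72.

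**Figure D2:**
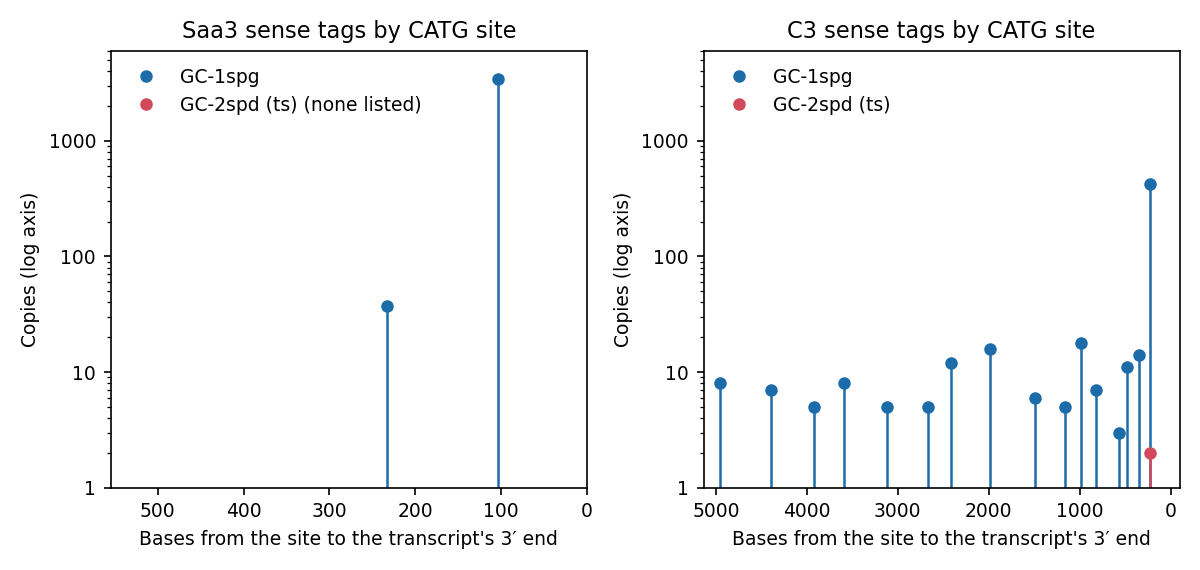
Copies of the sense tags of *Saa3* (left) and *C3* (right) that match no other gene, on a log axis, against the distance in bases from each CATG site to the 3′ end of the transcript. In GC-1spg (blue) *Saa3* was read at 2 sites and *C3* at 16, and in GC-2spd (ts) (red) the 2 copies of the most 3′ *C3* tag were the only ones listed.

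The C1 proteases, their substrate and factor B were read through the tags below. *C1s1*, *C4b* and *Cfb* have close copies or overlapping genes, and the tag shown is also found in the gene named after the stroke.
C1ra: CATGccagagatggctccaga
C1s1/C1s2: CATGgaactctgcatctctaa
C4b/C4a: CATGgggatggacggggaaac
Cfb/Gm20547: CATGcaaaggagattccgggg

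*C1ra* encodes complement C1r, which activates C1s. It had 189 copies in GC-1spg, or 37.3 TPM (32.1 to 43.0), and 88 in GC-2spd (ts), or 18.6 TPM (14.9 to 22.9), and the 2 intervals did not overlap. The log2 ratio was -1.001 (-1.38 to -0.63), just past the 2-fold line, and it was -0.997 when 0.5 tags were added to both counts. All copies came from 1 tag in the coding sequence of exon 11 at chr6:124522718-124522738, the third site from the 3′ end. Only 3 of the 12 reference tags of *C1ra* are found in no other gene. Another 5 listed tags are shared with *C1rb*, its near copy, and had 22 and 12 copies, a log2 ratio of -0.77 (-1.92 to 0.30). *C1rb* had no listed tag of its own in either library.

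*C1s1* encodes complement C1s, the protease that cleaves C4 and C2. It had no listed sense tag of its own, and 7 of its 21 reference tags are found in no other gene. The 9 listed tags that it shares with *C1s2* had 1068 copies in GC-1spg, or 211 TPM, and 209 in GC-2spd (ts), or 44.2 TPM. The log2 ratio was -2.25 (-2.47 to -2.04), a 4.76-fold difference. The tag shown above had 1042 and 207 of these copies and lies in the 3′ UTR of exon 12 of *C1s1*, at chr6:124530534-124530554. *C1s2* had 4 and 0 sense copies of its own. How the shared copies divide between the 2 genes was not resolved. *C1ra*, *C1s1*, *C1rl*, *C1rb* and *C1s2* lie next to each other on chromosome 6. *C1rl*, which encodes a C1r-like protease, had 31 and 9 copies, a log2 ratio of -1.68 (-2.94 to -0.58), and it was not called by the test described below for genes outside the 9. Summed, the shared C1s tags thus had 4.76-fold fewer copies in GC-2spd (ts). The sum of the tags shared by *C1ra* and *C1rb* was 1.71-fold lower, but its interval included 0, so a difference was not shown for it. A tag of each set went the other way, with 0 and 2 copies for C1s and 0 and 4 for *C1ra* and *C1rb*.

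*C4b* encodes complement C4. It shares its only listed tag with *C4a*, with 16 copies in GC-1spg, or 3.15 TPM, and 9 in GC-2spd (ts), or 1.90 TPM. The log2 ratio of -0.73 had an interval of -2.09 to 0.54, so the 2 libraries were not distinguishable. The tag is in the coding sequence of exon 40 of *C4b* at chr17:34728783-34728803, the most 3′ site.

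*Cfb* encodes factor B, the protease of the alternative pathway. Its only listed tag spans the junction of exons 16 and 17 and also belongs to *Gm20547*, an annotated gene that overlaps *Cfb*. It had 8 and 3 copies, a log2 ratio of -1.31 (-3.86 to 0.75), which includes 0. *C2*, which encodes the protease that joins C4 in the classical C3 convertase and lies 86 bases from *Cfb* on chromosome 17, had 23 and 59 copies. Its log2 ratio of 1.46 (0.74 to 2.22) was on the other side of 0. *Nelfe*, on the other side of *Cfb*, had 245 and 308 copies.

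*Serping1* encodes the C1 inhibitor, which blocks C1r and C1s. Its 2 listed tags, from the same site, are shown because they differ by 1 base and each was found in 1 library only.
Serping1, GC-2spd (ts): CATGggtcgtgtatatgaccc
Serping1, GC-1spg: CATGggtcgagtatatgaccc
The first is the reference sequence in the coding sequence of exon 8 at chr2:84765584-84765604, and it had 0 and 4 copies. The second carries the substitution T10A, counted from 1 at the 5′ end of the tag with the reference base first, and it had 3 and 0 copies. With both counted, *Serping1* reached 0.591 TPM (0.122 to 1.73) for GC-1spg against 0.846 TPM (0.231 to 2.17) for GC-2spd (ts), and the intervals overlapped. The log2 ratio of 0.52 had an interval of -2.05 to 3.29. With exact matches only, GC-1spg had 0 copies. In GC-1spg the C1 inhibitor was thus at 0.591 TPM, all from the tag that differs by 1 base. In the same library *C1ra* was at 37.3 TPM and the tags that *C1s1* shares with *C1s2* were at 211 TPM.

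**Figure D3:**
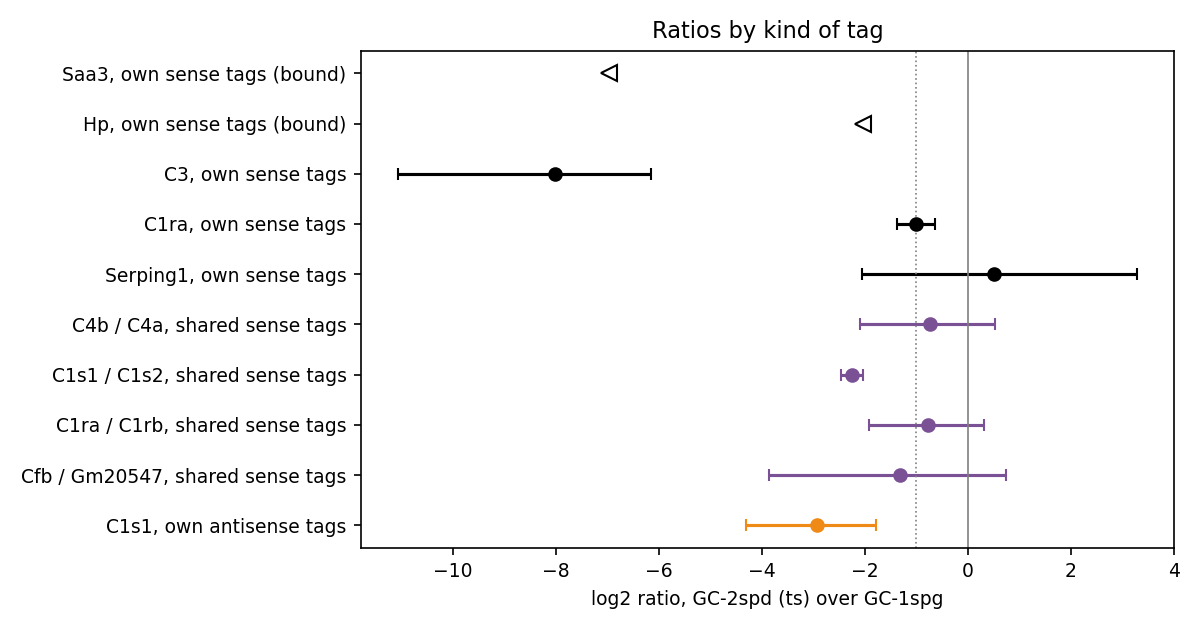
Log2 ratio of GC-2spd (ts) over GC-1spg with exact 95% intervals for tags of 1 gene (black), sense tags shared with the gene after the stroke (purple) and the antisense tags of *C1s1* (orange). Open triangles are folds of the measured level against the limit, and the dotted line marks 2-fold lower. *C3* was at -8.02, *C1ra* lay at the line with -1.001, and the intervals of *Serping1*, *C4b*, *Cfb* and the tags shared by *C1ra* and *C1rb* included 0.

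Markers of germ cells, fibroblasts, macrophages, neutrophils, hepatocytes and Sertoli cells were counted in the same way. All 11 germ cell markers, among them *Ddx4*, *Dazl* and *Sycp3*, were unlisted in both libraries, although each has reference tags of its own. All 7 macrophage markers, *Ptprc* and *Csf1r* included, were unlisted as well. Of 6 hepatocyte markers only *Apoa1* was listed, with 5 and 0 copies, and *Alb*, *Ttr* and *Ahsg* were at 0. *S100a8*, with 45 and 4 copies, was the only one of 6 neutrophil markers that was listed, and *Ngp* among them has no reference tag. Of 7 fibroblast markers 5 were listed in both lines, and they summed to 2349 TPM for GC-1spg against 746 TPM for GC-2spd (ts). *Col1a1* alone had 10465 and 2425 copies, the sums without it were 286 and 233 TPM, and the median log2 ratio of the listed 5 was -0.10. *Dcn* had 710 and 2 copies, while *Col1a2*, with 605 and 907, and *Col3a1*, with 50 and 120, went the other way. Of 5 Sertoli cell markers 4 were listed, with a summed level of 135 TPM and 38.9 TPM. *Wt1*, with 620 and 0 copies, made up 122 TPM of the GC-1spg sum. *Gata4*, with 29 and 138 copies, and *Sox9*, with 29 and 46, went the other way, and *Amh* had 5 and 0. The part of these markers in the values of *Saa3*, *C3* and the other genes was not tested. In such a culture, fewer cells that express a gene and less RNA per cell cannot be told apart.

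The other genes of the 2 systems were taken from lists of 112 genes, of which 58 were listed. A gene was called where the Audic-Claverie test (two-sided) on its tag counts gave a false discovery rate up to 0.001 and the ratio was 2-fold or more in either direction. This test compares the libraries and not the conditions. The test called 17 genes lower in GC-2spd (ts) and 6 higher, against 7.84% and 11.7% of all 14450 genes tested. The lists were chosen with earlier results of these data known, so nothing is read from setting them against all genes. The median log2 ratio of the 58 listed genes, with 0.5 tags added to both counts, was -0.62, and that of all genes was 0.13. TMM scaling shifted the log2 ratios of genes counted in both libraries by -0.17 and called 18 of these genes lower and 6 higher, while over all genes it turned the split from 1684 higher and 1133 lower into 1292 higher and 1443 lower.

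Of 32 further acute phase proteins 10 were listed, and 6 were called lower and 0 higher. The list was not divided into proteins whose blood levels rise and those whose levels fall. These calls therefore give no direction of an acute phase response. *Trf*, which encodes the iron carrier transferrin, had 445 and 0 copies, at least 59.9-fold lower (65.9-fold). *Cp*, which encodes the copper-carrying ferroxidase ceruloplasmin, had 400 and 2 copies, a log2 ratio of -7.54 (-10.59 to -5.68). It had 17 and 1 distinct tags, so as for *C3* unlisted single copies could make the fold smaller than this interval. *Lbp*, whose product binds bacterial lipopolysaccharide, had 92 and 0 copies, at least 11.0-fold lower (13.6-fold). *Il1rn*, the interleukin-1 receptor antagonist, had 51 and 0, at least 3.87-fold lower (5.19-fold). These genes resembled *Saa3*, *Hp* and *C3* in that GC-2spd (ts) listed at most 2 copies. *Mt2*, which encodes a metallothionein, was the most abundant of the list and had 9738 and 2750 copies, a log2 ratio of -1.72 (-1.78 to -1.66). *Ptx3*, a long pentraxin made outside the liver, had 484 and 204, a log2 ratio of -1.14 (-1.39 to -0.91). *Mt1* had 20 and 8 copies and was not called. The liver genes *Alb*, *Ttr*, *Orm1*, *Fga* and *Saa1* were among the 22 that were not listed, and *Hamp* among these has no reference tag of its own.

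The complement genes outside the 9 were mixed. Of 17 genes of the classical and lectin pathways 6 were listed, and 2 of these, *C2* and *Masp1*, were called higher and 0 lower. *Masp1*, a protease of the lectin pathway, had 0 and 22 copies, at least 2.35-fold higher (3.75-fold). *Colec12*, a scavenger receptor with a collectin domain, had 106 and 156 copies and was not called. *C1qa*, *C1qb* and *C1qc*, whose products recognise the target in the C1 complex, were not listed in either library, so C1r and C1s tags were found without tags for C1q. Of 9 genes of the alternative and terminal pathways 3 were listed and 0 were called by this test, while *Cfp*, which encodes properdin, had 13 and 30 copies, a log2 ratio of 1.31 (0.33 to 2.37).

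Of 14 complement regulators 7 were listed, and *Cd55* and *Clu* were called lower. *Cd55*, which speeds the decay of the C3 convertases on the cell surface, had 59 and 12 copies, a log2 ratio of -2.20 (-3.23 to -1.29). *Clu*, which encodes clusterin, a chaperone that also binds the terminal complex, had 902 and 262, a log2 ratio of -1.68 (-1.89 to -1.48). The other surface regulators were not called. *Cr1l*, the rodent regulator Crry, had 90 and 75 copies with an interval of -0.62 to 0.30, and *Cd59a*, which blocks the terminal complex, had 24 and 38 with an interval of -0.01 to 1.57. *C1qbp*, which encodes a mainly mitochondrial protein that binds C1q, had 2532 and 2207 copies and was not called.

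Among 16 receptors for these proteins 11 were listed. *Lrp1*, a broad endocytic receptor, was called higher with 321 and 1074 copies, a log2 ratio of 1.84 (1.66 to 2.03). *Scarb1*, a lipoprotein receptor that also binds serum amyloid A, was called higher with 57 and 218, a log2 ratio of 2.04 (1.61 to 2.48). *Tlr4*, which senses lipopolysaccharide, was called lower with 86 and 27, a log2 ratio of -1.57 (-2.25 to -0.93). *Tlr2*, with 44 and 34 copies, and *Lrp2*, with 42 and 41, were not called. The anaphylatoxin receptor *C3ar1* was at 3 and 13 copies and was not called.

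**Figure D4:**
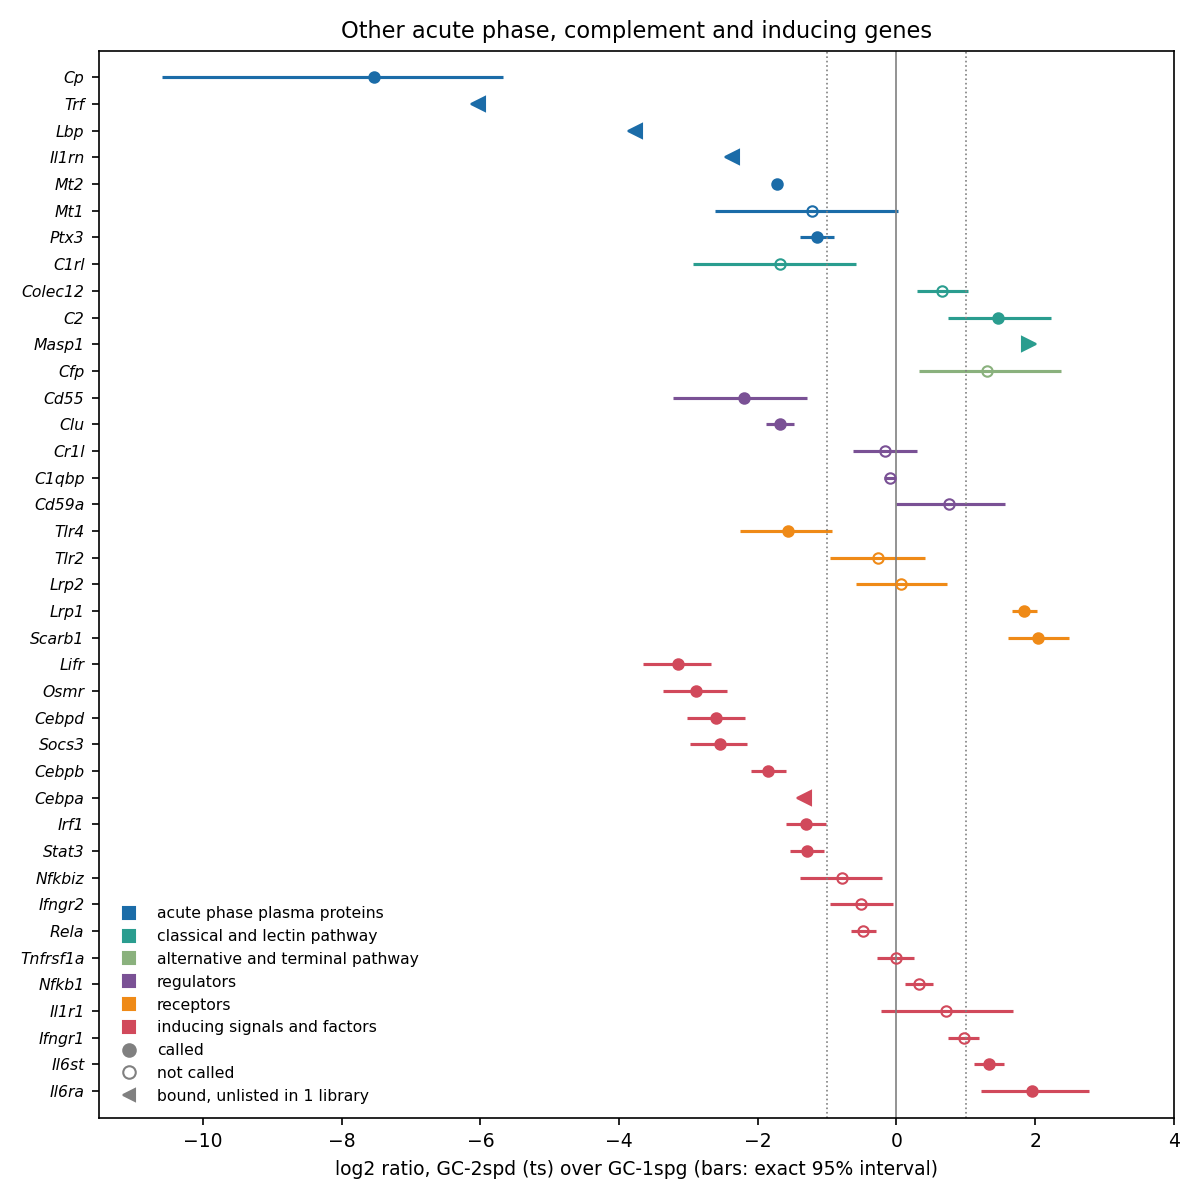
Log2 ratio of GC-2spd (ts) over GC-1spg with exact 95% intervals for 39 genes of the lists with at least 20 tags or a call, coloured by list. Filled symbols were called by the Audic-Claverie test, and triangles are folds of the measured level against the limit. Among the called genes counted in both libraries the ratios ran from -7.54 for *Cp* to 2.04 for *Scarb1*, and the acute phase genes that were called all lay below the dotted line at -1.

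Of 24 genes of the pathways that induce acute phase genes 21 were listed, and 8 were called lower and 2 higher. These are signals, receptors and factors, and the 8 include the inhibitor *Socs3*. All 3 C/EBP factors of the list were called lower. *Cebpb* had 637 and 165 copies, a log2 ratio of -1.85 (-2.10 to -1.60). *Cebpd* had 370 and 57, a log2 ratio of -2.60 (-3.03 to -2.19), and *Cebpa* had 17 and 0, at least 1.47-fold lower (2.52-fold). The calls of *Cebpd* and *Cebpa* were lost when only the most 3′ CATG site was counted. *Stat3*, the factor below interleukin-6 type receptors, had 500 and 191, a log2 ratio of -1.29 (-1.53 to -1.04). *Socs3*, the feedback inhibitor of that pathway, had 365 and 58, a log2 ratio of -2.55 (-2.98 to -2.15). *Irf1*, an interferon-induced factor, had 372 and 141, a log2 ratio of -1.30 (-1.59 to -1.01).

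The receptors of the interleukin-6 family were split. *Lifr*, the receptor for leukaemia inhibitory factor, had 390 and 41 copies, a log2 ratio of -3.15 (-3.65 to -2.68), and *Osmr*, the receptor for oncostatin M, had 358 and 45, a log2 ratio of -2.89 (-3.37 to -2.44). *Il6st*, the shared subunit gp130, was called higher with 261 and 613, a log2 ratio of 1.33 (1.12 to 1.55), and so was *Il6ra*, the interleukin-6 receptor, with 19 and 69 copies. The NF-κB subunits *Nfkb1*, with 368 and 429 copies, and *Rela*, with 621 and 416, were not called, nor was the cofactor *Nfkbiz* with 72 and 39. *Tnfrsf1a* had 246 and 228 copies, *Il1r1* 17 and 26, *Ifngr2* 105 and 69 and *Ifngr1* 252 and 460, and none of these 4 was called. The cytokines themselves were at or near the floor of the lists, with *Il6* at 0 and 3 copies, *Lif* at 6 and 0 and *Il1a* at 2 and 0, while *Il1b*, *Tnf* and *Osm* were not listed.

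The promoter windows of 5 of the 9 genes were held in the RefSeq table for GRCm38.p6, namely those of *Saa3*, *C3*, *C1ra*, *C1s1* and *Lcn2*, with 6 windows from 250 bases before to 50 after a start site. They were searched on both strands for 4 patterns. The C/EBP pattern TTNNGNAA occurred in all 6 windows, as it did in 40.7% of 32851 promoter windows of the same length. The windows of *C1s1* overlap, and the TTAGGGAA at -52 and -90 from their start sites is the same site. *Saa3* had it at 4 positions, which 0.852% of all windows reached, among them TTATGCAA at position -99 and TTCTGGAA at -191 from the start site. *C3* had it at 3 positions, the nearest being TTGCGAAA at -45, which the pattern also matched on the other strand. *C1ra* had 3 positions, and at least 3 were found in 3.6% of all windows. The NF-κB pattern was found in *Lcn2* alone, at -43, and in 11.2% of all windows. The STAT pattern TTCNNNGAA was found in *C1ra* alone and in 8.3% of all windows, and the interferon response pattern, GAAA and GAAA with 2 bases between, in *Saa3* alone, at -125, and in 3.44%. A match says only that these letters stand in the window.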

How the data were processed

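Per the labels, 1 RNA sample of each line was profiled. The authors dropped reads without a usable tag and tags seen once, and deposited each 21-base tag with its count (copy number) and its TPM, the same count scaled to 1000000 clean tags. Tool versions of that step are not given in the sources read. TPM was recomputed here from the counts. Tags were matched to all CATG+17 tags of GENCODE M21 transcripts (GRCm38) on both strands with at most 1 mismatch, exact matches first, and sense tags whose best matches belonged to 1 gene were summed per gene. Shared tags were described for sets of up to 3 genes, and tags of larger sets were left out. GC-1spg had 121656 distinct tags and GC-2spd (ts) had 118173, and 1 copy was 0.197 and 0.212 TPM, which sets the precision. Unambiguous sense tags held 54.7% and 57.9% of the counts.

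Ratios carry exact conditional binomial (Clopper-Pearson) 95% intervals. Genes outside the 9 were called with the Audic-Claverie test and Benjamini-Hochberg adjustment over 14450 genes, with 0.01 TPM in place of 0 in the log2 ratio. The test was checked on simulated data. edgeR's quasi-likelihood test needs replicates and could not be fitted. The named genes are all 9, each gene of the lists with at least 20 tags or a call except 1 that is not reported here, and neighbours from the 2 nearest protein-coding genes on each side that lie in the same cluster. The flanking genes outside a cluster and list genes under 20 tags were named after their values were seen. Members and lists were chosen with earlier results of these data known.

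Alternatives tried were only the longest transcript, only the most 3′ CATG site, exact matching, antisense tags added, sense matches preferred, shared tags divided equally, TMM scaling, scaling to unambiguous sense tags, at least 10 tags, 0.5 tags added, an exact binomial test, and the exact test of edgeR at a biological coefficient of variation (BCV) set to 0.1, 0.2 or 0.4. Transcripts extended by 20 A were added after seeing the data. Counting and intervals used scipy 1.17.1, pandas 2.3.3 and numpy 2.4.6 under Python 3.11.15, figures matplotlib 3.10.9, and TMM edgeR 4.0.16 under R 4.3.3.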

Additional observations from a re-analysis of the deposited data

Results flagged for a closer look

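Antisense tags that match no other gene were outside the comparisons above and were above the 3 copies that a count of 0 allows for 3 of the 9 genes. *Saa3* had 127 antisense copies from 5 tags, all of GC-1spg, which is 3.69% of its sense copies. At the most 3′ site of *Saa3* the antisense tag CATGactgggaacaacaggaa had 58 copies, and at the next site upstream CATGtcccgtgaacttctgaa had 40 copies, where the sense tag had 37. *C3* had 25 from 6 tags, again all of GC-1spg, or 4.50% of its sense copies. *C1s1* had 57 and 7 antisense copies, with the GC-1spg count first, and the log2 ratio was -2.92 (-4.30 to -1.79, exact 95% interval). Of these, 53 and 7 were CATGcagactctttgacaatc, opposite the 3′ UTR at chr6:124530803-124530823. These were the only listed tags found in *C1s1* and in no other gene. Over all genes GC-1spg had antisense copies equal to 13.9% of its sense copies, and GC-2spd (ts) 12.2%.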

How the results depend on the processing

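The log2 ratios of *Saa3*, *C3*, *Hp*, *Lcn2* and *C1ra* kept their sign under each alternative that gave a value, and *C3* ranged from -8.19 to -7.70 and *C1ra* from -1.17 to -0.99. *Saa3* ranged from -16.92 to -9.34, *Hp* from -9.56 to -5.32 and *Lcn2* from -6.89 to -2.22, and the size of these 3 depends on what stands in for a count of 0, for *Saa3* also on how shared tags are counted and for *Lcn2* on the added A bases. *Saa3* had no tag in the longest transcript and *C1ra* had none at its most 3′ CATG site. The number of the 9 genes at least 2-fold lower was 5 and ranged from 4 to 6, and *C1ra* was on the other side of the 2-fold line with 0.5 tags added and with shared tags divided equally. The number at least 2-fold higher was 0, and it was 1, *Serping1*, with exact matches only. Of the related genes, 6 were called higher and 17 lower. The exact test of edgeR at a BCV set to 0.1 lost the call of *C2* only. At 0.2 that test called 3 and 10. The calls lost at 0.2 were those of *C2*, *Cd55*, *Cebpa*, *Clu*, *Il6ra*, *Il6st*, *Irf1*, *Ptx3*, *Stat3* and *Tlr4*. With 0.4 the test called 0 and 4, which were *Cp*, *Il1rn*, *Lbp* and *Trf*. Of these, *Lbp* lost its call with the most 3′ CATG site only, as did *Cebpa*, *Cebpd* and *Il6ra*, and *Il1rn* lost it with the longest transcript only, as did *Cd55*, *Masp1* and *Scarb1*. A single library per line gives no estimate of the BCV. The other alternatives called 4 to 7 higher and 14 to 22 lower. No paired analysis was possible because each line has 1 library. Depth limits *Lcn2*, *Serping1*, *C4b* and *Cfb*, which rest on 2 to 25 copies over both libraries.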
